A study of Saccharomyces cerevisiae with 60 samples.

Results

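The genes described here are 52 enzymes of amino acid synthesis in the budding yeast Saccharomyces cerevisiae, out of 7126 features in the deposited count tables. They were taken from a list of gene symbols by pathway, with the sulfur amino acid pathway and the genes used as strain markers left out, so they are not all amino acid synthesis genes. All 52 matched a feature by locus tag, and all 52 were among the 6070 genes that passed the filter on low counts. They comprise 5 genes of arginine, 11 of aromatic amino acid, 10 of branched-chain amino acid, 6 of histidine, 7 of lysine, 5 of threonine and homoserine and 4 of serine synthesis, with 4 genes that make glutamate, glutamine and asparagine.

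The 60 libraries form 20 groups of 3, from 4 strain states each taken without heat (25 °C) and at 10 and 30 min of 37 °C or 42 °C, in rich glucose medium with adenine. Every strain was W303 with Hsf1, the heat shock transcription factor, tagged for anchor-away, a system in which rapamycin ties a nuclear protein to one that leaves the nucleus. In the double loss state, cells with msn2Δ and msn4Δ, the deletions of both general stress activators, received rapamycin in DMSO for 45 min at 25 °C before sampling or heat. MSN-deleted cells carried the same deletions and received DMSO alone. Hsf1-depleted cells had intact MSN2 and MSN4 and received rapamycin. The cells called wild type here had intact MSN2 and MSN4 and received DMSO, and they too carry the anchor-away tag. Rapamycin and the loss of Hsf1 always came together, so their effects cannot be told apart. The labels do not call the replicates separate cultures, so a p-value here measures the spread between samples, which may be technical.

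As background, yeast cells build these amino acids in pathways that branch from shared precursors, and many of the genes are activated by Gcn4, a transcription factor whose translation rises when uncharged tRNA accumulates. Single pathways have activators of their own, such as Leu3 for branched-chain synthesis and Aro80 for the breakdown of aromatic amino acids. Heat shock in yeast raises chaperone genes through Hsf1 and a broad set of protective genes through Msn2 and Msn4, while genes for growth fall.

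The words recognised by these factors were searched on both strands of RefSeq's reference genome (build R64), from 250 bases before to 50 bases after each coding start. The Gcn4 core word TGACTC stood before 28 of the 52 genes (53.8%), against 7.96% of 6020 windows of the same length genome-wide. Its longer form TGACTCA, which contains the core word, stood before 19 (36.5%, against 2.72% genome-wide). The Msn2 and Msn4 word AGGGG was found for 6 of them (11.5%, against 21.6%), and the Hsf1 word GAANNTTC for 5 (9.62%, against 11.8%). These are matches of letters and not measured binding. The stretches below come from 5 genes with large falls described later and from 3 genes that rose, and capitals mark the word TGACTCA, or TGAGTCA where it lies on the other strand.
ARO4, chrII:718288-718317, minus strand: ttactgcgaaaTGACTCAacgatgaaatga
ILV3, chrX:466325-466354, minus strand: tcctctccagaTGACTCAgtaatatagtag
LEU9, chrXV:522759-522788, plus strand: gtcgtagtgaaTGACTCAtatttttccatc
BAT1, chrVIII:517350-517379, plus strand: ttgccttcttaTGACTCAaaattctattgt
HIS7, chrII:716678-716707, minus strand: caaaaaaaaatTGAGTCAtatcgtagcttt
HIS4, chrIII:68514-68543, minus strand: cccatgcacagTGACTCAcgtttttttatc
LYS1, chrIX:420968-420997, minus strand: tactaagtcgaTGAGTCAaaaaagactctt
CPA1, chrXV:882404-882433, plus strand: ggaagggtgttTGACTCAtcatcgcatcgc

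The word began 135 bases before the coding start of ILV3, 171 before BAT1, 199 before HIS4, 231 before HIS7 and 250 before LYS1. It lay further out for LEU9 (257 bases), ARO4 (312 bases) and CPA1 (484 bases). HIS4, LYS1 and CPA1 were 3 of the 4 genes that rose in wild type after 30 min at 42 °C, so the word stood before genes that fell and genes that rose. The Leu3 word, a CCGG half-site on both sides of a gap of 2 bases, was chosen after the values were seen and gets no test. In the same windows as the words above it was found in 8 of 6020, and 2 of these belonged to the 52 genes, BAT1 and LEU1. Within 500 bases before the coding start it was found in 16 of 6019 windows genome-wide, and 5 belonged to the 52 genes, shown here with the word in capitals.
BAT1, chrVIII:517375-517404, plus strand: attgtgtttgCCGGTACCGGcctttaagct
LEU1, chrVII:478850-478879, minus strand: aacgaaaattCCGGGACCGGcgaaatttgc
ILV2, chrXIII:483606-483635, plus strand: ccggagcctgCCGGTACCGGcttggcttca
ILV5, chrXII:839611-839640, minus strand: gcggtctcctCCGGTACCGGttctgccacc
GDH1, chrXV:1043427-1043456, minus strand: aaccaatgcgCCGGAACCGGcccatgcatt

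Poly(A) RNA was read as counts per gene, with library totals from 3848210 to 10142858 and a median of 5938357. Values are given as CPM, the count scaled to a common library total, on library sizes corrected by edgeR's trimmed mean of M values (TMM). They are levels relative to the bulk of the mRNA, and in bulk RNA fewer cells with a transcript and less of it per cell cannot be told apart. A count of 0 allows up to 0.296 to 0.78 CPM (3 counts), and intervals and floors cover counting error only. The deleted genes matched the labels, with MSN2 no higher than 0.381 CPM and MSN4 no higher than 1.71 CPM in the deleted strain, against at least 99.7 and 64.5 CPM in the intact strain. Anchor-away acts on the protein, so HSF1 mRNA is no check of the depletion. A gene is said to rise or fall here, or to be called, when the edgeR adjusted p was below 0.05 and the log2 fold change reached 1 in either direction. Under scaling by library totals alone the median over all genes shifted by -0.55 to 1.01 on the log2 scale, and all changes below are relative to the TMM scale. The libraries farthest from their groups were 5, namely MSN-deleted after 10 min at 42 °C replicate 1, double loss at 25 °C replicate 2, double loss after 30 min at 37 °C replicates 2 and 3, and Hsf1-depleted at 25 °C replicate 1. The names in the count tables place the libraries in 6 sets of 10, and no set holds both MSN backgrounds. The MSN deletions and the set therefore cannot be told apart where levels of both backgrounds are set side by side, at 25 °C or after heat. This applies to each statement below that libraries of MSN-deleted or double loss cells lay above or below those of wild type. With the set as a term in the fit, the heat comparisons kept their counts within 1.5 times, with 4 exceptions among the differences from wild type, which were 6 for Hsf1-depleted cells after 30 min at 42 °C, 10 and 2 for MSN-deleted cells after 10 min at 37 °C and 42 °C, and 17 for double loss cells after 10 min at 37 °C.

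At 25 °C in wild type, levels per kilobase of coding length differed widely among the 52 genes. ILV5, the acetohydroxyacid reductoisomerase of isoleucine and valine synthesis, was highest at 3488 ± 904 CPM per kb (SD, n = 3 libraries here and for levels below). ILV6, the regulatory subunit of acetolactate synthase, followed at 1410.0 ± 519.5, then the homoserine kinase THR1 at 1236 ± 374 and the dihydroxyacid dehydratase ILV3 at 1152 ± 451 CPM per kb. These neighbours in the order lie within each other's spread, and ILV5 stands apart from them. The lowest were 3 histidine genes, HIS6 at 17.4 ± 4.81, HIS4 at 24.5 ± 5.48 and HIS7 at 26.4 ± 4.09 CPM per kb, whose levels also overlap. The arginine gene ARG8 at 30.56 ± 7.995 and the serine gene SER2 at 33.78 ± 6.66 CPM per kb came next. Their spread overlaps that of HIS7, so the low end is not set apart by pathway.

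After 30 min at 42 °C most of these mRNAs fell in wild type, and fewer did in each of the other 3 heat conditions. The summed level of the 52 genes was 33670, 29185 and 20682 CPM at 25 °C. It was 26165, 15668 and 23666 CPM after 10 min and 22600, 17331 and 22658 CPM after 30 min at 37 °C, where the libraries overlap those at 25 °C. The sums include ARO9, which rose and was the highest of the 52 genes per kilobase after 10 min at 37 °C. It then had 3482 ± 1501 CPM per kb, against 405 ± 266 at 25 °C. A sum without ARO9 was not taken, so the overlap at 10 min does not describe the other genes. At 42 °C the summed level of the 52 genes was 19651, 19503 and 18334 CPM after 10 min and 8145, 7886 and 7884 CPM after 30 min, and each library lay below each at 25 °C. With 10 min at 37 °C, 27 of 52 genes fell and 2 rose, beside 22.2% and 21% of all tested genes. With 30 min at 37 °C, 12 fell and 2 rose, beside 13.1% and 14.4%. At 42 °C 15 fell and 2 rose after 10 min, beside 18.2% and 23.1%, and after 30 min 40 fell and 4 rose, beside 29.5% and 30.2%. The median log2 fold change of the 52 genes was -1.02, -0.54, -0.62 and -2.14 in that order, while the median of all tested genes lay between -0.04 and -0.01. Without wild type after 10 min at 37 °C replicate 3, the number called in that condition was 19 in place of 29. Among those 29 calls, 12 ended in at least 1 fit that left out a library, namely ARG1, BAT1, GLN1, HOM2, HOM3, HOM6, LYS2, LYS9, LYS21, SER2, SER33 and TRP5. In the 30 min condition at 37 °C so did ARO7, HIS7, HOM6 and LYS4, and after 10 min at 42 °C ASN2 and HIS6. Library totals alone called 31 in place of 17 after 10 min at 42 °C.

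**Figure D1:**
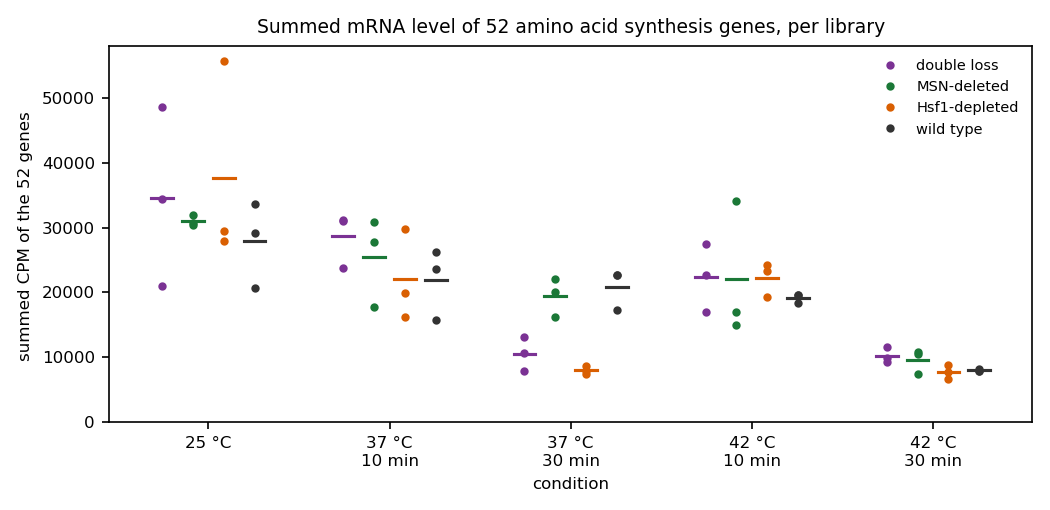
Summed CPM of the 52 genes (vertical axis) in each library, by condition (horizontal axis, temperature and minutes) and strain state (colours, double loss leftmost and wild type rightmost). Points are libraries and bars are means of 3. At 30 min at 42 °C wild type libraries sit at 8145, 7886 and 7884 CPM, and the Hsf1-depleted libraries at 30 min at 37 °C sit at 8548, 7832 and 7412 CPM.

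Branched-chain synthesis had the lowest median of the 8 pathways. Of its 10 genes, 8 fell and 0 rose after 30 min at 42 °C in wild type, beside 29.5% and 30.2% of all tested genes. Their median log2 fold change was -3.71. ILV3 (YJR016C, chromosome X, 464451 to 466208) had 31.7, 16.7 and 17.7 CPM after 30 min at 42 °C, against 2812, 2037 and 1226 CPM at 25 °C. Every heated library lay at least an order of magnitude below those at 25 °C, and the log2 fold change was -6.53 ± 0.58 (standard error here and below, edgeR adjusted p = 6.50e-14). BAT1 (YHR208W, chromosome VIII, 517532 to 518713), the mitochondrial branched-chain aminotransferase, had 26.8, 19.6 and 24.6 CPM after 30 min at 42 °C, against 1167, 1201 and 775 CPM at 25 °C, and fell by a log2 fold change of -5.47 ± 0.44 (edgeR adjusted p = 3.84e-15). LEU9 (YOR108W, chromosome XV, 523027 to 524841), an isozyme of the first step of leucine synthesis that overlaps a feature on the opposite strand, had 16.9, 8.45 and 15.1 CPM after 30 min at 42 °C, against 676, 471 and 280.1 CPM at 25 °C (-5.14 ± 0.64, edgeR adjusted p = 1.05e-09). In all 3 genes the groups were far apart. For 77% of all tested genes the groups did not overlap in this condition, by whatever margin.

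The order of events differed between these genes. ILV5 had 5209, 4163 and 3061 CPM at 25 °C, 207, 183 and 248 CPM after 10 min and 217, 147 and 148 CPM after 30 min at 42 °C, so it was low at the first heated time. The difference between both heated times did not pass the test (-0.31 ± 0.41, edgeR adjusted p = 0.577). LEU1, the isopropylmalate isomerase, had 1239, 1245 and 958 CPM at 25 °C, 816, 593 and 479.7 CPM after 10 min and 67.5, 61 and 57.6 CPM after 30 min at 42 °C, so most of its fall came between the heated times (-3.34 ± 0.29, edgeR adjusted p = 1.46e-13). LEU4, the other isozyme of the leucine pathway's first step, kept 462, 569 and 543 CPM after 30 min, against 1168, 783 and 538 CPM at 25 °C, and the groups overlapped.

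At 37 °C LEU9 dipped and came back. It had 676, 471 and 280.1 CPM at 25 °C, 155, 23.4 and 47.4 CPM after 10 min and 421, 219 and 335 CPM after 30 min at 37 °C, where the last group overlaps that at 25 °C and the middle one does not. The share of all tested genes without overlap was not taken at 37 °C. The early fall was -2.66 ± 0.56 (edgeR adjusted p = 7.18e-05) and deepened to -3.64 without wild type after 10 min at 37 °C replicate 1, the highest of its 3 libraries. The level at 30 min was higher than at 10 min (2.11 ± 0.55, edgeR adjusted p = 0.00235), and this difference was 3.08 without the same library. ILV3 had 639, 184 and 284 CPM after 10 min (-2.46 ± 0.47, edgeR adjusted p = 1.99e-05) and 757, 534 and 738 CPM after 30 min, when it was still called down (-1.58 ± 0.46, edgeR adjusted p = 0.00504).

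In the aromatic pathway, 10 of 11 genes fell after 30 min at 42 °C in wild type and 0 rose (median -2.11), beside 29.5% and 30.2% of all tested genes. The largest fall of all 52 genes was that of ARO4 (YBR249C, chromosome II, 716882 to 717994), 1 of a pair of enzymes for the first committed step. It had 3.93, 3.50 and 5.26 CPM after 30 min at 42 °C, against 972, 752 and 502 CPM at 25 °C, a log2 fold change of -7.45 ± 0.41 (edgeR adjusted p = 1.77e-20). After 10 min at the same temperature it still had 576, 494 and 428 CPM, so the heated libraries of both times are separated by a wide gap. ARO3, which catalyses the same step, had 81.5, 80.5 and 72.9 CPM after 30 min at 42 °C, against 402, 308 and 305 CPM at 25 °C (-2.11 ± 0.18, edgeR adjusted p = 1.42e-14). The multifunctional shikimate enzyme ARO1 fell by a log2 fold change of -2.97 ± 0.30, the chorismate synthase ARO2 by -2.64 ± 0.29, and the tryptophan genes TRP2, TRP3, TRP4 and TRP5 by -2.16 ± 0.20, -1.80 ± 0.26, -1.94 ± 0.27 and -1.88 ± 0.30, where TRP2 and TRP4 overlap features on the opposite strand.

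ARO9 (YHR137W, chromosome VIII, 375709 to 377250), an aromatic aminotransferase best known for the breakdown of aromatic amino acids, did the opposite at the early times. It had 1086, 489.6 and 299 CPM at 25 °C, 6308, 2732 and 7066 CPM after 10 min at 37 °C and 4051, 4634 and 4163 CPM after 10 min at 42 °C. All early heated libraries lay above all at 25 °C, and the share of all tested genes separated in this way was not taken at these times. The log2 fold changes were 3.10 ± 0.61 and 2.78 ± 0.60 (edgeR adjusted p = 2.44e-05 and 0.000109). These became 3.84 and 3.44 without wild type at 25 °C replicate 1, the highest of its 3 libraries. At 30 min the level was 868, 407 and 809 CPM at 37 °C and 739, 631 and 762 CPM at 42 °C, and both groups overlapped 25 °C. ARO9 overlaps a feature on the opposite strand, and whether counting used the strand is not given in the sources used here. ARO8, the partner aminotransferase of synthesis, had 129, 162 and 145 CPM after 30 min at 42 °C, against 880.0, 854 and 446 CPM at 25 °C (-2.32 ± 0.38, edgeR adjusted p = 5.02e-07).

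**Figure D2:**
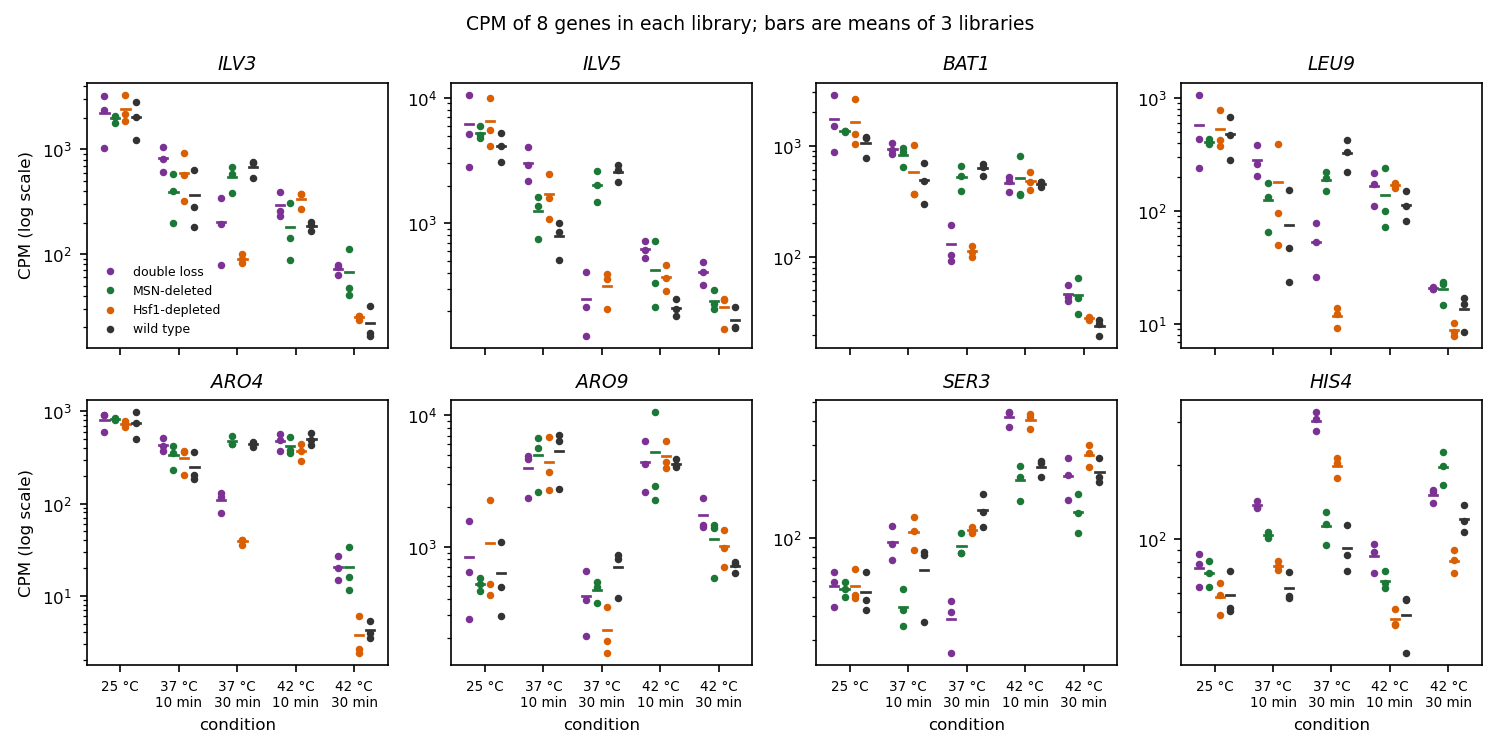
CPM of ILV3, ILV5, BAT1, LEU9, ARO4, ARO9, SER3 and HIS4 in each library (vertical log axes) by condition (horizontal axes) and strain state (colours, double loss leftmost and wild type rightmost), with bars at the means of 3 libraries. ARO4 in wild type drops to 3.93, 3.50 and 5.26 CPM at 30 min at 42 °C, and ARO9 peaks at the 10 min times.

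In lysine synthesis 6 of 7 genes fell and 1 rose after 30 min at 42 °C in wild type, beside 29.5% and 30.2% of all tested genes. LYS12, the homoisocitrate dehydrogenase, had 24.1, 15 and 16.3 CPM after 30 min at 42 °C, against 279.8, 268 and 346 CPM at 25 °C (-4.01 ± 0.24, edgeR adjusted p = 1.06e-19), and the groups were far apart. LYS4 (YDR234W, chromosome IV, 931129 to 933210), the homoaconitase, fell most in wild type at 37 °C at the early time, with 62.1, 29.5 and 22.7 CPM after 10 min at 37 °C, against 292, 273 and 165 CPM at 25 °C (-2.68 ± 0.34, edgeR adjusted p = 3.04e-09). LYS1 (YIR034C, chromosome IX, 419615 to 420736), the enzyme of the last step, moved the other way. It had 201, 136 and 76.5 CPM at 25 °C, 386, 234 and 695 CPM after 10 min at 37 °C and 365, 417 and 374 CPM after 30 min at 42 °C. These rises were 1.67 ± 0.50 and 1.49 ± 0.50 (edgeR adjusted p = 0.00412 and 0.00748), without overlap of the groups. Groups did not overlap for 77% of all tested genes after 30 min at 42 °C, and this share was not taken after 10 min at 37 °C.

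Among the 6 histidine genes, 3 fell and 1 rose after 30 min at 42 °C in wild type, beside 29.5% and 30.2% of all tested genes. HIS7, which makes the imidazole ring, had 0.736, 0.618 and 2.39 CPM after 30 min at 42 °C, against 51.1, 42.4 and 37.8 CPM at 25 °C, resting on 3, 3 and 10 counts in the heated libraries (-5.13 ± 0.52, edgeR adjusted p = 4.95e-12), and the value was -5.87 without replicate 3 of the heated group. HIS1, the enzyme of the first step, had 15.7, 14.2 and 11.2 CPM after 30 min at 42 °C, against 183, 183 and 205 CPM at 25 °C (-3.79 ± 0.36, edgeR adjusted p = 8.90e-13). HIS6 (YIL020C, chromosome IX, 314035 to 314820), a low-level isomerase gene that overlaps a same-strand feature, had the largest early fall of the 52 genes at 37 °C, with 1.09, 3.04 and 1.23 CPM after 10 min at 37 °C, against 11.7, 11.3 and 18 CPM at 25 °C. That value rests on 4, 10 and 6 counts in the heated libraries (-2.97 ± 0.57, edgeR adjusted p = 2.05e-05). HIS4 (YCL030C, chromosome III, 65934 to 68333), a multifunctional enzyme of the pathway, rose, with 107, 138 and 118 CPM after 30 min at 42 °C, against 73.9, 51.9 and 50.4 CPM at 25 °C (1.04 ± 0.18, edgeR adjusted p = 1.47e-06). HIS5 was the 1 gene of the 52 that was called in none of the 16 heat comparisons, with 77.8, 73.5 and 77 CPM after 30 min at 42 °C, against 80.3, 79.4 and 85.1 CPM at 25 °C in wild type.

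Arginine synthesis was mixed, with 2 of 5 genes down and 1 up after 30 min at 42 °C in wild type. The shares of all tested genes were 29.5% and 30.2%, so these counts are not read as a trait of the pathway. CPA1 (YOR303W, chromosome XV, 882899 to 884134), the small subunit of the carbamoyl phosphate synthetase, had 1766, 1937 and 1791 CPM after 30 min at 42 °C, against 717, 832 and 469 CPM at 25 °C (1.45 ± 0.33, edgeR adjusted p = 0.000163). ARG3, the ornithine carbamoyltransferase that uses its product, was low at 37 °C and not at 42 °C. It had 168, 191 and 173 CPM at 25 °C, 70.9, 42.3 and 64.9 CPM after 10 min and 62.9, 74.7 and 79.1 CPM after 30 min at 37 °C, then 209.5, 143 and 179 CPM and 312, 223 and 225 CPM at the same times at 42 °C. At 30 min it was higher at 42 °C than at 37 °C (1.81 ± 0.26, edgeR adjusted p = 7.68e-08), as was CPA1 (2.18 ± 0.34, edgeR adjusted p = 4.24e-07). ARG8, which makes ornithine's precursor by transamination, fell in the same 30 min at 42 °C (-1.71 ± 0.26, edgeR adjusted p = 1.81e-07).

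All 5 threonine and homoserine genes fell after 30 min at 42 °C in wild type, from the aspartate kinase HOM3 (-1.59 ± 0.34) to the aspartate semialdehyde dehydrogenase HOM2 (-3.36 ± 0.26). All 4 genes of glutamate, glutamine and asparagine synthesis fell too, and 29.5% of all tested genes did so. GLN1, the glutamine synthetase, had 495, 385 and 565 CPM at 25 °C, 58.2, 50.8 and 66.4 CPM after 10 min and 27.5, 18.3 and 25.3 CPM after 30 min at 42 °C. GDH1, the NADP-dependent glutamate dehydrogenase, had 1019, 734 and 613 CPM at 25 °C, 695, 641 and 704 CPM after 10 min and 41.7, 41.4 and 33.7 CPM after 30 min at 42 °C (-4.34 ± 0.30 at 30 min, edgeR adjusted p = 1.42e-17). GLN1 was thus low at both heated times, and GDH1 at the later one. After 10 min at 37 °C the GLN1 libraries were uneven, at 122, 396 and 66.8 CPM.

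In serine synthesis 2 of 4 genes fell and 1 rose after 30 min at 42 °C in wild type, beside 29.5% and 30.2% of all tested genes. SER3 (YER081W, chromosome V, 322686 to 324095), a phosphoglycerate dehydrogenase at the head of the pathway, had 67.3, 48.1 and 42.9 CPM at 25 °C, 249, 206 and 243 CPM after 10 min and 206, 258 and 193 CPM after 30 min at 42 °C. All heated libraries lay above all at 25 °C, with log2 fold changes of 2.14 ± 0.25 and 2.05 ± 0.25 (edgeR adjusted p = 6.09e-10 and 7.37e-10). Groups did not overlap for 77% of all tested genes after 30 min, and this share was not taken after 10 min. SER3 overlaps the non-coding same-strand transcript SRG1, so its counts may hold reads of both. With library totals alone SER3 was the 1 gene still called up at 30 min, while LYS1 (0.98), CPA1 (0.93) and HIS4 (0.50) were not. Of the 44 calls after 30 min at 42 °C, that of BAT2 ended in fits that left out 1 library, either replicate 1 of wild type at 25 °C (-0.75) or wild type after 30 min at 42 °C replicate 1 (-0.92).

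The wild type times and temperatures were also compared with each other. At 37 °C, 8 genes were higher and 1 lower after 30 min than after 10 min, beside 10.3% and 8.47% of all tested genes, and the lower one was ARO9 (-2.95 ± 0.60). Without wild type after 10 min at 37 °C replicate 1 the number called was 16 in place of 9, and with library totals alone it was 19. At 42 °C, 1 gene was higher and 32 were lower after 30 min than after 10 min, beside 10.5% and 16.3%, and the higher one was HIS4 (1.31 ± 0.18, edgeR adjusted p = 7.42e-08). At 10 min, 5 genes were higher and 3 lower at 42 °C than at 37 °C, beside 15.4% and 6.62%, and the lower ones were ILV5 (-1.90 ± 0.42), GLN1 (-1.73 ± 0.36) and ASN1 (-1.15 ± 0.36). The GLN1 call ended without wild type after 10 min at 37 °C replicate 2 (-0.75). At 30 min, 2 were higher and 35 lower at 42 °C, beside 21.5% and 22.3%.

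**Figure D3:**
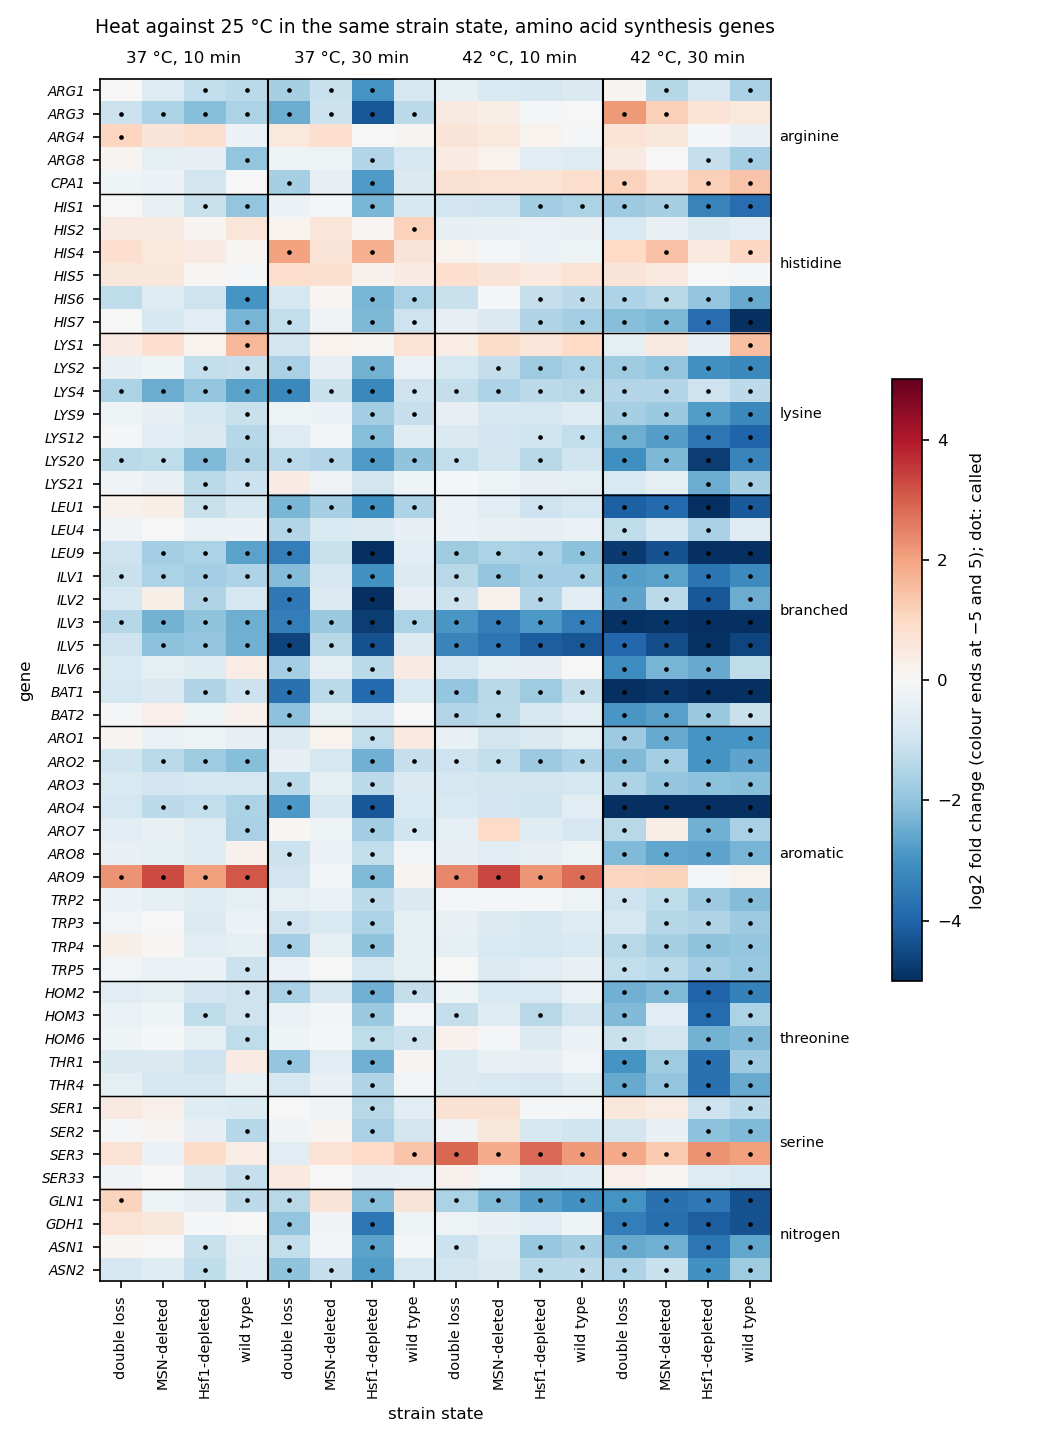
Log2 fold change of heat over 25 °C (colour scale from -5 in blue to 5 in red) for the 52 genes (rows, by pathway) in the 16 heat comparisons (columns, by condition and, within it, double loss, MSN-deleted, Hsf1-depleted and wild type). Dots mark called genes. The columns of 30 min at 42 °C are mostly blue in all 4 states, and those of 30 min at 37 °C are bluest in Hsf1-depleted cells, with 41 of 52 genes called down.

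The same heat was then read in the other strain states, each against its own 25 °C libraries. With 30 min at 42 °C, in double loss cells 36 fell and 3 rose (beside 24.6% and 25.5% of all tested genes, median -1.60), in MSN-deleted cells 34 fell and 3 rose (beside 23.2% and 26.2% of all tested genes, median -1.56), and in Hsf1-depleted cells 41 fell and 2 rose (beside 27.2% and 29.8% of all tested genes, median -2.49). Without the 5 libraries farthest from their groups 35 fell and 2 rose in double loss cells, and 39 fell and 4 rose in Hsf1-depleted cells. In this condition 31 genes were called down in all 4 states and SER3 was called up in all 4, beside 16.5% and 16.7% of all tested genes. Of these, the calls of HIS6, TRP2 and TRP5 in double loss, ASN2 and HIS6 in MSN-deleted, LYS4 in Hsf1-depleted and BAT2 in wild type cells ended in at least 1 fit without a library. At the earlier time at 42 °C, in double loss cells 13 fell and 2 rose (beside 13.6% and 17.1% of all tested genes, median -0.42), in MSN-deleted cells 10 fell and 2 rose (beside 13.7% and 19.5% of all tested genes, median -0.60), and in Hsf1-depleted cells 19 fell and 2 rose (beside 17.2% and 22.6% of all tested genes, median -0.81). The MSN-deleted count of 12 called became 24 without its replicate 1 after 10 min at 42 °C, 1 of those libraries, and 23 without all 5. Without all 5, 19 fell and 2 rose in double loss cells. ILV3, ILV5, ILV1, BAT1, LEU9, ARO2, LYS4 and GLN1 were called down and ARO9 and SER3 up in all 4 states at this time, beside 8.29% and 10.6% of all tested genes. The LEU9 call ended in at least 1 fit without a library in each state but wild type, and the ARO2 call in double loss cells.

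With 10 min at 37 °C, in double loss cells 5 fell and 3 rose (beside 8.55% and 4.68% of all tested genes, median -0.20), in MSN-deleted cells 9 fell and 1 rose (beside 13.2% and 8.02% of all tested genes, median -0.35), and in Hsf1-depleted cells 19 fell and 1 rose (beside 15.2% and 16.1% of all tested genes, median -0.79). The double loss count of 8 called was 4 without double loss at 25 °C replicate 1 and 14 without the 5 farthest libraries, and the Hsf1-depleted count of 20 was 13 without its replicate 2 after 10 min at 37 °C and 15 without the 5 farthest libraries. ARG3, ILV1, ILV3, LYS4 and LYS20 fell and ARO9 rose in all 4 states, beside 7.33% and 2.62% of all tested genes. In double loss cells the calls of ARG3, ILV1, ILV3 and LYS20 each ended in at least 1 fit without a library. At the later time at 37 °C, in double loss cells 28 fell and 1 rose (beside 20.9% and 16.9% of all tested genes, median -1.15), in MSN-deleted cells 9 fell and 0 rose (beside 7.87% and 7.87% of all tested genes, median -0.31), and in Hsf1-depleted cells 41 fell and 1 rose (beside 25% and 22.9% of all tested genes, median -2.06). Without the 5 farthest libraries 37 fell and 3 rose in Hsf1-depleted cells. For double loss cells that fit leaves 1 library after this heat, so its counts are not given. Against the 0 rises in MSN-deleted cells, 5 members had a positive change at an unadjusted p under 0.05 in edgeR, and DESeq2 called 0. ARG3, ILV3, LEU1, LYS4 and LYS20 fell in all 4 states and no member rose in all 4, beside 6% and 3.97% of all tested genes. Calls that ended in at least 1 fit without a library were those of LYS20 in double loss, ARG3 and LYS4 in MSN-deleted and LYS4 in wild type cells. Reads shared between LYS20 and its near copy LYS21 leave the split of that pair uncertain.

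After 30 min at 37 °C many genes fell further in Hsf1-depleted cells than in wild type. The test compares their heat response with that of wild type, as the difference of both log2 fold changes, which is the value in brackets after the levels of each gene below. It found 28 of 52 genes lower and 1 higher, beside 14.8% and 7.89% of all tested genes, with a median of -1.33 for the 52 genes and -0.02 for all. In Hsf1-depleted cells the summed level was 8548, 7832 and 7412 CPM after this heat, against 55678, 27938 and 29538 CPM at 25 °C. In wild type it was 22600, 17331 and 22658 CPM, against 33670, 29185 and 20682 CPM at 25 °C. All Hsf1-depleted libraries after this heat lay below all wild type ones.

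The 3 largest differences were in branched-chain genes, of which 7 of 10 were lower. LEU9 had 9.18, 13.9 and 12.3 CPM in Hsf1-depleted cells after 30 min at 37 °C and 786, 421 and 378 CPM in them at 25 °C. Wild type libraries had 421, 219 and 335 CPM with this heat and 676, 471 and 280.1 CPM at 25 °C (difference in log2 fold change -4.93 ± 0.80, edgeR adjusted p = 3.16e-06). ILV2 (YMR108W, chromosome XIII, 484084 to 486147), the catalytic subunit of acetolactate synthase, had 19.3, 22.4 and 20.0 CPM in Hsf1-depleted cells after 30 min at 37 °C and 955, 804 and 686 CPM in them at 25 °C. The wild type values were 661, 477 and 661 CPM with this heat and 928, 844 and 645 CPM at 25 °C (-4.88 ± 0.48, edgeR adjusted p = 3.77e-11). ILV5 (YLR355C, chromosome XII, 838066 to 839253) had 206, 358 and 393 CPM in Hsf1-depleted cells after 30 min at 37 °C and 9976, 4103 and 5500.3 CPM in them at 25 °C. In wild type there were 2682, 2134 and 2923 CPM with this heat and 5209, 4163 and 3061 CPM at 25 °C (-3.67 ± 0.60, edgeR adjusted p = 3.54e-06). In each of them the Hsf1-depleted libraries after heat were separate from and below all other libraries listed, while both states overlapped at 25 °C. After this heat 54.9% of all tested genes had no overlap between the 2 states. Of the other genes shown with the Leu3 word, which was chosen with these values known, BAT1 had -3.12 ± 0.53, LEU1 -1.51 ± 0.37 and GDH1 -3.33 ± 0.37, in a comparison where 28 of the 52 genes were lower.

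Other pathways followed in part. All 4 nitrogen genes, 4 of 5 threonine, 6 of 11 aromatic, 3 of 5 arginine and 3 of 7 lysine genes responded lower. Among histidine genes 1 was lower and 1 higher, and of the 4 serine genes 0 were called. These counts stand beside 14.8% lower and 7.89% higher among all tested genes. ARO4 had 40.6, 35.5 and 40.4 CPM in Hsf1-depleted cells after 30 min at 37 °C and 742, 778 and 675 CPM in them at 25 °C. Levels in wild type were 457, 405 and 467 CPM with this heat and 972, 752 and 502 CPM at 25 °C (-3.49 ± 0.44, edgeR adjusted p = 2.00e-08). In ARO4, as in the 3 genes above, the heated Hsf1-depleted libraries lay below all others. ARG3 had 15.2, 12.5 and 10.6 CPM after this heat in Hsf1-depleted cells, against 62.9, 74.7 and 79.1 CPM in wild type (-2.93 ± 0.37, edgeR adjusted p = 2.47e-08). HIS4 was the 1 gene that responded higher, with 214, 205 and 177 CPM in Hsf1-depleted cells after 30 min at 37 °C and 66.1, 58.6 and 48.6 CPM in them at 25 °C. Wild type gave 74.1, 85.7 and 114 CPM with this heat and 73.9, 51.9 and 50.4 CPM at 25 °C (1.15 ± 0.25, edgeR adjusted p = 0.000385). The calls of ARO2, ARO9, ASN2, HIS1, HOM2, HOM3, THR1, THR4 and TRP3 ended in at least 1 fit that left out a library, and the count stayed between 24 and 30 in those fits. Without the 5 farthest libraries 26 genes were lower and 1 higher.

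**Figure D4:**
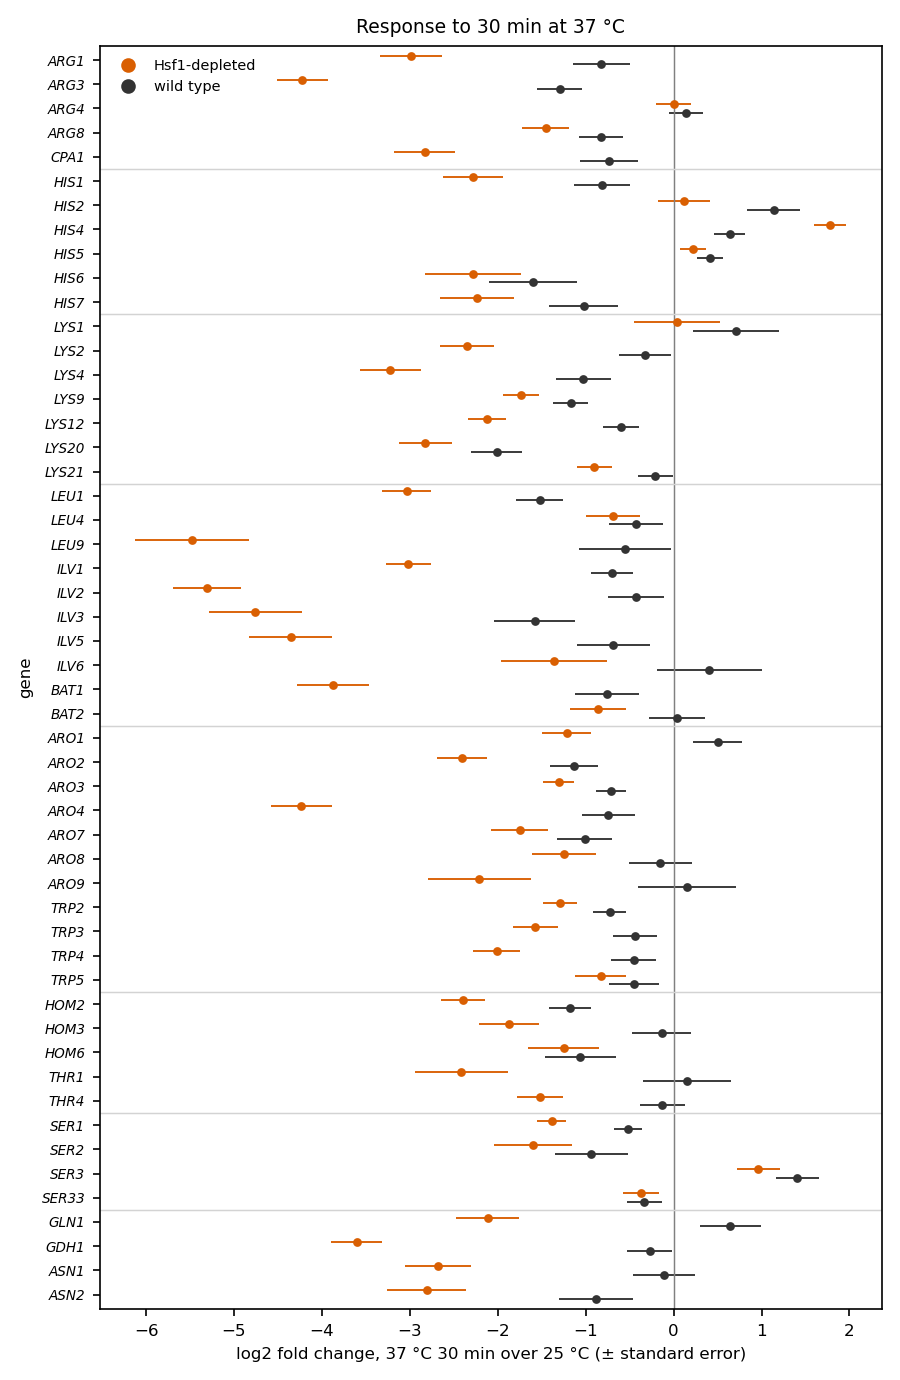
Log2 fold change of 30 min at 37 °C over 25 °C (horizontal axis, bars are standard errors) for the 52 genes (vertical axis) in Hsf1-depleted cells and wild type. The Hsf1-depleted median is -2.06 and that of wild type -0.54, and HIS4 lies highest in Hsf1-depleted cells at 1.78.

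In the other conditions few genes differed between Hsf1-depleted cells and wild type. After 10 min at 37 °C, 2 responded higher and 0 lower, beside 1.65% and 1.58% of all tested genes (edgeR, with 1 lower at an unadjusted p under 0.05 and 0 lower by DESeq2). ARG8 had 20.9, 20.3 and 21.5 CPM in Hsf1-depleted cells after 10 min at 37 °C and 25.1, 33.8 and 24.8 CPM in them at 25 °C. For wild type they were 16.6, 8.52 and 4.49 CPM with this heat and 50.6, 33.4 and 32.6 CPM at 25 °C (1.57 ± 0.37, edgeR adjusted p = 0.00836). ARG4, the argininosuccinate lyase, had 67.7, 79.1 and 76.2 CPM in Hsf1-depleted cells after 10 min at 37 °C and 34.1, 43 and 49 CPM in them at 25 °C. Wild type libraries had 44.7, 52.6 and 25.7 CPM with this heat and 64.3, 36.3 and 48.6 CPM at 25 °C (1.10 ± 0.28, edgeR adjusted p = 0.0183). The ARG8 call ended without wild type at 25 °C replicate 1 (1.25), wild type after 10 min at 37 °C replicate 3 (1.11) or Hsf1-depleted at 25 °C replicate 1 (1.40). The ARG4 call ended without wild type at 25 °C replicate 1 (0.79), wild type after 10 min at 37 °C replicate 3 (0.75), Hsf1-depleted at 25 °C replicate 1 (0.87) or Hsf1-depleted after 10 min at 37 °C replicate 2 (1.02). The count of 2 was 0 without the first 3 libraries just named, 1 without Hsf1-depleted after 10 min at 37 °C replicate 2, 4 without wild type after 10 min at 37 °C replicate 1 and 5 without Hsf1-depleted at 25 °C replicate 2. Without the 5 farthest libraries it was 1, and ARG4 was not called (0.93). At the same time at 42 °C 0 were higher and 0 lower, beside 0.0659% and 1.05% (edgeR, with 1 each way at an unadjusted p under 0.05 and 0 by DESeq2).

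Among the 52 genes 0 responded higher and 2 lower in Hsf1-depleted cells than in wild type after 30 min at 42 °C, beside 0.659% and 2.6% of all tested genes, and 0 were higher at an unadjusted p under 0.05 in edgeR or by DESeq2. HOM3 had 73.2, 42.1 and 61.1 CPM in Hsf1-depleted cells after 30 min at 42 °C and 1317, 738 and 466 CPM in them at 25 °C. The wild type values were 212, 235 and 221 CPM with this heat and 828, 738 and 449 CPM at 25 °C (-2.24 ± 0.48, edgeR adjusted p = 0.00193). ILV2 had 55.5, 31.4 and 43.9 CPM in Hsf1-depleted cells after 30 min at 42 °C and 955, 804 and 686 CPM in them at 25 °C. In wild type there were 178, 117 and 137 CPM with this heat and 928, 844 and 645 CPM at 25 °C (-1.74 ± 0.46, edgeR adjusted p = 0.0172). The ILV2 call ended without wild type at 25 °C replicate 3 (-1.58), wild type after 30 min at 42 °C replicate 1 (-1.57) or Hsf1-depleted after 30 min at 42 °C replicate 2 (-1.57). The count of 2 was 1 in those fits. It was 4 without wild type at 25 °C replicate 2 or Hsf1-depleted at 25 °C replicate 3, and 5 without Hsf1-depleted at 25 °C replicate 2. With library totals alone 8 were higher and 1 lower, and without the 5 farthest libraries 0 were higher and 2 lower.

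In MSN-deleted cells most responses that differed from wild type were higher. After 30 min at 42 °C, 12 of 52 genes responded higher and 1 lower, beside 12.7% and 11% of all tested genes, with a median of 0.64 for the 52 genes and 0.23 for all. ARO4 had 33.8, 15.9 and 11.6 CPM in MSN-deleted cells after 30 min at 42 °C and 818, 840.5 and 814 CPM in them at 25 °C. Levels in wild type were 3.93, 3.50 and 5.26 CPM with this heat and 972, 752 and 502 CPM at 25 °C (2.12 ± 0.47, edgeR adjusted p = 0.000666). HIS1 had 66.9, 55.2 and 66.5 CPM in MSN-deleted cells after 30 min at 42 °C and 169, 231 and 191 CPM in them at 25 °C. Wild type gave 15.7, 14.2 and 11.2 CPM with this heat and 183, 183 and 205 CPM at 25 °C (2.15 ± 0.47, edgeR adjusted p = 0.00056). HIS7 had 7.15, 6.31 and 9.32 CPM in MSN-deleted cells after 30 min at 42 °C and 38.7, 33.2 and 36 CPM in them at 25 °C. For wild type they were 0.736, 0.618 and 2.39 CPM with this heat and 51.1, 42.4 and 37.8 CPM at 25 °C (2.89 ± 0.67, edgeR adjusted p = 0.00105), which became 3.73 without wild type after 30 min at 42 °C replicate 3.

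In these genes every MSN-deleted library after heat lay above every wild type one, and 56.5% of all tested genes had no overlap of these groups. The heated MSN-deleted libraries lay below the unheated libraries of their own state. The other genes with a higher response were LYS2, LYS9, LYS12 and LYS21 of lysine synthesis, SER1 and SER2, ARG8, ARO7 and HOM2. BAT2, the cytosolic branched-chain aminotransferase, responded lower, with 70.6, 70.1 and 45.4 CPM in MSN-deleted cells after 30 min at 42 °C and 401, 358 and 460.3 CPM in them at 25 °C. Wild type libraries had 166, 218 and 199.8 CPM with this heat and 573, 395 and 306 CPM at 25 °C (-1.59 ± 0.45, edgeR adjusted p = 0.00706). The calls of LYS2 and SER2 ended in at least 1 fit without a library. With library totals alone 22 were higher and 1 lower.

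The early time at 37 °C had 5 genes that responded higher and 0 that responded lower in MSN-deleted cells than in wild type, beside 3.57% and 9.79% of all tested genes. HIS6 had 4.74, 3.94 and 9.71 CPM in MSN-deleted cells after 10 min at 37 °C and 7.71, 10.2 and 10.7 CPM in them at 25 °C. The wild type values were 1.09, 3.04 and 1.23 CPM with this heat and 11.7, 11.3 and 18 CPM at 25 °C (2.33 ± 0.75, edgeR adjusted p = 0.0291). HIS1 had 138, 130.4 and 192 CPM in MSN-deleted cells after 10 min at 37 °C and 169, 231 and 191 CPM in them at 25 °C. In wild type there were 82.6, 38.6 and 25.3 CPM with this heat and 183, 183 and 205 CPM at 25 °C (1.61 ± 0.46, edgeR adjusted p = 0.0125). ARG8 had 26.9, 26.4 and 23.6 CPM in MSN-deleted cells after 10 min at 37 °C and 36.4, 36.3 and 32.1 CPM in them at 25 °C. Levels in wild type were 16.6, 8.52 and 4.49 CPM with this heat and 50.6, 33.4 and 32.6 CPM at 25 °C (1.54 ± 0.37, edgeR adjusted p = 0.00265). The heated groups of both states did not overlap in these genes, with MSN-deleted the higher, and 41.4% of all tested genes had no overlap of these groups, and the genes named were picked for their large differences. The HIS1 call ended without wild type after 10 min at 37 °C replicate 3 (1.37), and the HIS6 call without wild type at 25 °C replicate 3 (2.12), MSN-deleted at 25 °C replicate 1 (2.28), MSN-deleted after 10 min at 37 °C replicate 3 (1.91), wild type after 10 min at 37 °C replicate 3 (2.18) or wild type after 10 min at 37 °C replicate 1 (2.16).

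Without wild type after 10 min at 37 °C replicate 1, ARG8 moved to 2.21 and HIS1 to 2.28 in this comparison, and without replicate 2 of that group HIS6 moved to 2.98. The call of LEU1 also ended in at least 1 fit without a library. The count of 5 was 3 without wild type after 10 min at 37 °C replicate 3 and 13 without replicate 1 of that group. It was 8 without MSN-deleted after 10 min at 37 °C replicate 1, and 9 without replicate 2 of either heated group or without wild type at 25 °C replicate 2. Under library totals alone 22 were higher and 0 lower. No member had a lower response at an unadjusted p under 0.05 in edgeR, and DESeq2 called 0 lower. With 30 min at 37 °C, 0 were higher and 0 lower, beside 0.0329% and 0.231% (edgeR, with 3 higher and 0 lower at an unadjusted p under 0.05, and 0 by DESeq2).

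The 10 min time at 42 °C had 1 gene that responded higher in MSN-deleted cells and 0 lower, beside 2.92% and 6.59% of all tested genes, with 0 lower at an unadjusted p under 0.05 in edgeR or by DESeq2. It was ARO7, the chorismate mutase of phenylalanine and tyrosine synthesis, with 93.6, 185 and 111 CPM in MSN-deleted cells after 10 min at 42 °C and 71.7, 63.8 and 65.2 CPM in them at 25 °C. Wild type gave 72.8, 55.7 and 42.8 CPM with this heat and 111, 96.9 and 103 CPM at 25 °C (1.81 ± 0.44, edgeR adjusted p = 0.00398). The count was 3 without MSN-deleted after 10 min at 42 °C replicate 1 and 5 without the 5 farthest libraries, with 3 higher and 2 lower. After heat each MSN-deleted library lay above each wild type one, and groups were separate for 31.9% of all tested genes.

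In double loss cells part of the genes also responded lower than in wild type at the later time at 37 °C. There 17 genes responded lower and 1 higher than in wild type, beside 16.7% and 9.64% of all tested genes. This comparison and that of Hsf1-depleted cells share the wild type libraries, so their overlap is not counted as a result. ILV5 had 216, 128 and 409 CPM in double loss cells after 30 min at 37 °C and 10512, 2808 and 5116 CPM in them at 25 °C. For wild type they were 2682, 2134 and 2923 CPM with this heat and 5209, 4163 and 3061 CPM at 25 °C (-3.93 ± 0.60, edgeR adjusted p = 1.44e-06). ILV2 had 86.4, 52.4 and 107 CPM in double loss cells after 30 min at 37 °C and 1361, 605 and 978 CPM in them at 25 °C. Wild type libraries had 661, 477 and 661 CPM with this heat and 928, 844 and 645 CPM at 25 °C (-3.16 ± 0.46, edgeR adjusted p = 6.22e-07). BAT1 had 103, 91 and 194 CPM in double loss cells after 30 min at 37 °C and 2845, 869 and 1484 CPM in them at 25 °C. The wild type values were 644, 534 and 687 CPM with this heat and 1167, 1201 and 775 CPM at 25 °C (-2.99 ± 0.52, edgeR adjusted p = 1.63e-05). In all 3 the heated libraries of double loss cells lay below all others, where 52.6% of all tested genes had no overlap between both heated groups. Without double loss at 25 °C replicate 1, the highest of that group, ILV5 moved to -3.20 and BAT1 to -2.34.

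The lower genes were 7 of 10 branched-chain, 3 of 11 aromatic, 2 of 4 nitrogen, 2 of 7 lysine, 1 of 5 arginine, 1 of 5 threonine and 1 of 4 serine genes. Among all tested genes 16.7% were lower, and outside the branched-chain genes the counts are too small to read as traits of a pathway. LEU1 was not called here (-0.75 ± 0.37, edgeR adjusted p = 0.114). HIS4 was again the 1 higher gene (1.36 ± 0.25, edgeR adjusted p = 3.61e-05), with 329, 276 and 309 CPM in double loss cells and 74.1, 85.7 and 114 CPM in wild type after this heat. SER3 was lower in double loss cells, with 41.5, 25.7 and 47.4 CPM in double loss cells after 30 min at 37 °C and 67, 44.1 and 59.8 CPM in them at 25 °C. In wild type there were 115, 136 and 169 CPM with this heat and 67.3, 48.1 and 42.9 CPM at 25 °C (-1.98 ± 0.35, edgeR adjusted p = 1.67e-05). By library totals alone 10 were lower and 8 higher. Leaving out the 5 farthest libraries keeps 1 double loss library after this heat, so no count is given for that fit. The calls of ARG3, ARO1, ILV3, LYS2, THR1 and TRP4 ended in at least 1 fit without a library.

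In double loss cells 10 genes responded higher and 0 lower after 10 min at 37 °C, beside 11% and 13.2% of all tested genes, with 0 lower at an unadjusted p under 0.05 in edgeR or by DESeq2. GLN1 had 1260.5, 969 and 889 CPM in double loss cells after 10 min at 37 °C and 396, 515 and 549.9 CPM in them at 25 °C. Levels in wild type were 122, 396 and 66.8 CPM with this heat and 495, 385 and 565 CPM at 25 °C (2.4 ± 0.49, edgeR adjusted p = 0.000213), which moved to 3.39 without wild type after 10 min at 37 °C replicate 2. HIS7 had 43.3, 30.0 and 44.5 CPM in double loss cells after 10 min at 37 °C and 30.2, 51.8 and 32.5 CPM in them at 25 °C. Wild type gave 15.3, 8.22 and 3.27 CPM with this heat and 51.1, 42.4 and 37.8 CPM at 25 °C (2.35 ± 0.56, edgeR adjusted p = 0.00129). ARG8 had 44.8, 30.9 and 34.4 CPM in double loss cells after 10 min at 37 °C and 39.2, 35.8 and 26.3 CPM in them at 25 °C. For wild type they were 16.6, 8.52 and 4.49 CPM with this heat and 50.6, 33.4 and 32.6 CPM at 25 °C (2.11 ± 0.37, edgeR adjusted p = 1.88e-05). All double loss libraries lay above all wild type ones after this heat in these 3 genes, which were picked for their large differences, and groups were separate in either direction for 49.5% of all tested genes. The count of 10 was 17 without wild type after 10 min at 37 °C replicate 1 and 34 with library totals alone. Without the 5 farthest libraries 12 were higher and 3 lower. The calls of ARG1, ARO2, LEU1 and SER1 ended in at least 1 fit without a library.

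In the same cells 2 genes were higher and 0 lower after 10 min at 42 °C, beside 2.55% and 7.92% of all tested genes, with 0 lower at an unadjusted p under 0.05 in edgeR or by DESeq2. GLN1 had 179.7, 132 and 179.5 CPM in double loss cells after 10 min at 42 °C and 396, 515 and 549.9 CPM in them at 25 °C. Wild type libraries had 58.2, 50.8 and 66.4 CPM with this heat and 495, 385 and 565 CPM at 25 °C (1.47 ± 0.49, edgeR adjusted p = 0.0403). ARG8 had 43.4, 50.2 and 42.6 CPM in double loss cells after 10 min at 42 °C and 39.2, 35.8 and 26.3 CPM in them at 25 °C. The wild type values were 25.4, 34.5 and 15.5 CPM with this heat and 50.6, 33.4 and 32.6 CPM at 25 °C (1.06 ± 0.35, edgeR adjusted p = 0.0385). In 11 of the 12 fits without 1 library the count fell to 1 or 0, the exception being that without wild type at 25 °C replicate 2. Where the call ended, the GLN1 difference lay between 1.277 and 1.533 and the ARG8 difference between 0.76 and 1.11. Without the 5 farthest libraries 2 were higher and 1 lower, and GLN1 was not called (1.43).

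For double loss cells 14 genes responded higher and 2 lower than in wild type after 30 min at 42 °C, beside 17.1% and 14.9% of all tested genes. The median difference was 0.67 for the 52 genes and 0.19 for all. HIS7 had 10.1, 8.96 and 7.44 CPM in double loss cells after 30 min at 42 °C and 30.2, 51.8 and 32.5 CPM in them at 25 °C. In wild type there were 0.736, 0.618 and 2.39 CPM with this heat and 51.1, 42.4 and 37.8 CPM at 25 °C (3.01 ± 0.66, edgeR adjusted p = 0.000338), which moved to 3.81 without wild type after 30 min at 42 °C replicate 3. ARO4 had 27.1, 14.9 and 20.0 CPM in double loss cells after 30 min at 42 °C and 906, 598 and 907 CPM in them at 25 °C. Levels in wild type were 3.93, 3.50 and 5.26 CPM with this heat and 972, 752 and 502 CPM at 25 °C (2.17 ± 0.47, edgeR adjusted p = 0.00029). ARG8 had 38.8, 45 and 53.9 CPM in double loss cells after 30 min at 42 °C and 39.2, 35.8 and 26.3 CPM in them at 25 °C. Wild type gave 8.59, 12.2 and 14.8 CPM with this heat and 50.6, 33.4 and 32.6 CPM at 25 °C (2.15 ± 0.36, edgeR adjusted p = 7.35e-06). In arginine synthesis 4 of 5 genes responded higher, and ARG3 had 976, 878 and 947 CPM in double loss cells after this heat, against 312, 223 and 225 CPM in wild type (1.61 ± 0.36, edgeR adjusted p = 0.000445). The lower ones were LYS1 (-1.97 ± 0.70) and BAT2 (-1.77 ± 0.45). Under library totals alone 37 were higher and 0 lower, and without the 5 farthest libraries 13 were higher and 5 lower. The calls of ARG4, ARO1, GLN1, LYS1 and TRP2 ended in at least 1 fit without a library.

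At 25 °C none of the 52 genes was called between states by edgeR, in any of the 4 comparisons. Called up and down among all tested genes were 0% and 0.198% for Hsf1-depleted cells against wild type, 0.0165% and 0.0988% for MSN-deleted cells against wild type, 0.0494% and 0.445% for double loss against wild type, and 0% and 0.329% for double loss against MSN-deleted cells. Among the 52 genes, those at an unadjusted p under 0.05 numbered 0 for Hsf1-depleted cells, 2 higher and 1 lower for MSN-deleted cells, 3 higher for double loss against wild type and 0 against MSN-deleted cells. DESeq2 called 0 in each. The smallest p among them was that of ARG4 in double loss cells, with 63.2, 73.3 and 88.4 CPM, against 64.3, 36.3 and 48.6 CPM in wild type (0.59 ± 0.20, edgeR adjusted p = 0.347). The libraries of Hsf1-depleted and double loss cells were uneven at 25 °C, as ILV5 shows with 9976, 4103 and 5500.3 CPM in Hsf1-depleted and 10512, 2808 and 5116 CPM in double loss cells, against 5209, 4163 and 3061 CPM in wild type. A missed threshold does not show that levels were the same.

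For 7 pairs of isozyme genes, the log2 ratio of the first to the second (CPM + 1) was compared between heat and 25 °C over all 4 states. The test was an exact two-sided permutation test of samples within states, with 160000 arrangements and a smallest possible p of 1.25e-05, adjusted over 28 tests. Of the 28 tests, 26 passed. A pass concerns the mean over the 4 states, which did not always move together. After 30 min at 37 °C ARO3 gained over ARO4 by 1.18 on average. In wild type that ratio was -1.101 ± 0.063, against -1.092 ± 0.322 at 25 °C (SD, n = 3). After 10 min at 37 °C SER3 gained over SER33 by 0.903 on average. In MSN-deleted cells that ratio was -0.618 ± 0.445, against -0.321 ± 0.353 at 25 °C (SD, n = 3). LEU4, which overlaps a feature on the opposite strand, gained over LEU9 after 30 min at 42 °C, by 3.81 on average (adjusted exact permutation p = 2.33e-05). In wild type the ratio was 4.69, 5.91 and 5.08, against 0.79, 0.73 and 0.94 at 25 °C, and it was higher with heat in all 4 states. ARO3 gained over ARO4 by 4.38 (adjusted exact permutation p = 2.33e-05), with ratios of 4.07, 4.18 and 3.56 in wild type, against -1.27, -1.28 and -0.72 at 25 °C. The ratio thus changed sign in wild type.

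The ratio of BAT1 to BAT2 fell by 3.15 in the same condition (adjusted exact permutation p = 2.33e-05), with ratios of -2.59, -3.41 and -2.97 in wild type, against 1.02, 1.60 and 1.34 at 25 °C. BAT2 itself had 166, 218 and 199.8 CPM in wild type after this heat, against 573, 395 and 306 CPM at 25 °C. SER3 gained over SER33 by 2.71 after 10 min at 42 °C (adjusted exact permutation p = 2.33e-05). In wild type SER33 had 50.5, 36.2 and 33.1 CPM then, against 57.4, 63.5 and 61.4 CPM at 25 °C. The ratio of ARO8 to ARO9 fell by 3.10 after 10 min at 37 °C and fell by 3.13 after 30 min at 42 °C (adjusted exact permutation p = 2.33e-05 for both). In wild type ARO9 rose at the earlier of these times, and at the later one ARO8 fell while ARO9 was not called.

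ASN1 and ASN2, asparagine synthetases, shifted by less. In wild type ASN1 had 199, 156 and 154 CPM and ASN2 had 390.0, 357 and 339 CPM after 30 min at 42 °C, against 1274, 997 and 792 CPM and 1649, 1359 and 698 CPM at 25 °C, and the ratio moved by -0.94 over the states (adjusted exact permutation p = 6.18e-05). The ratio of LYS20 to LYS21 fell by 1.78 in this condition (adjusted exact permutation p = 2.33e-05). In wild type LYS20 had 7.61, 5.36 and 5.26 CPM and LYS21 had 24.8, 21.4 and 17.2 CPM, against 53.6, 73.3 and 50.6 CPM and 66.9, 71.6 and 61 CPM at 25 °C. Their coding sequences are 91.6% identical and share 37.8% of 50-base windows, so this split is uncertain, while the other pairs share at most 2.04%. The tests that missed were ARO3 and ARO4 after 10 min at 42 °C (-0.08, adjusted exact permutation p = 0.398) and ARO8 and ARO9 after 30 min at 37 °C (-0.03, adjusted exact permutation p = 0.871). The ASN1 and ASN2 test after 10 min at 42 °C (-0.27) no longer passed without wild type after 10 min at 42 °C replicate 1 or 2 or wild type at 25 °C replicate 3, and its ratio was lower with heat in 3 states and higher in MSN-deleted cells at 0.04 ± 0.09, against -0.10 ± 0.17 at 25 °C (SD, n = 3). The test of SER3 and SER33 after 30 min at 37 °C (0.68) no longer passed without wild type at 25 °C replicate 3, double loss at 25 °C replicate 2, double loss after 30 min at 37 °C replicate 3 or Hsf1-depleted at 25 °C replicate 2. That mean pools states that differ in direction, since the ratio was lower with heat in double loss cells at -1.35 ± 0.68, against -0.30 ± 0.53 at 25 °C (SD, n = 3), and higher in the other 3, as in wild type at 1.52 ± 0.14, against -0.23 ± 0.40 at 25 °C (SD, n = 3).

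**Figure D5:**
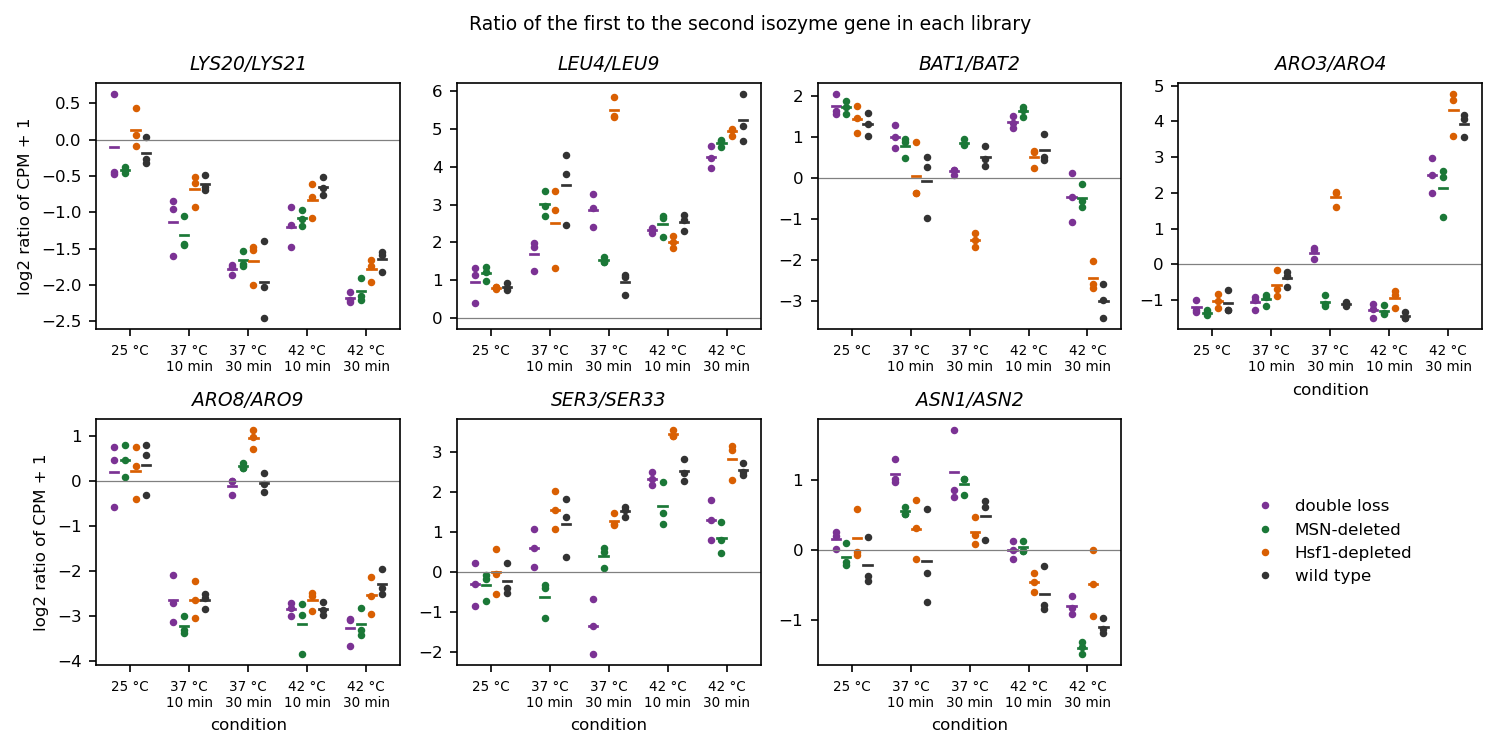
Log2 ratio of CPM + 1 of the first to the second gene of 7 isozyme pairs (vertical axes) in each library, by condition (horizontal axes) and strain state (colours, double loss leftmost and wild type rightmost), with bars at the means of 3 libraries. The ARO3 to ARO4 ratio in wild type is positive after 30 min at 42 °C (4.07, 4.18 and 3.56) and negative at 25 °C (-1.27, -1.28 and -0.72).

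Genes around these pathways were read from 5 further lists, in wild type after 30 min at 42 °C, where 29.5% of all tested genes fell and 30.2% rose. Of 18 other amino acid synthesis genes 9 fell and 1 rose (median -1.01), and PRO1 of proline synthesis had the largest change (-3.41 ± 0.31, edgeR adjusted p = 2.38e-13). Of 8 genes of general amino acid control 6 fell and 0 rose. GCN4 mRNA averaged 491 ± 55.6 CPM, against 2305 ± 312 CPM at 25 °C (-2.23 ± 0.27, edgeR adjusted p = 5.21e-10), and it was not called in the other 3 wild type heat conditions. Since Gcn4 is set mainly by translation, its mRNA does not measure its activity. CPC2, the ribosome-bound repressor of the same control, whose gene holds the small RNA snR24, had a larger fall, with 30.8 ± 4.93 CPM, against 3580.0 ± 779.7 CPM at 25 °C (-6.86 ± 0.49, edgeR adjusted p = 5.20e-17).

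All 21 cytosolic tRNA synthetase genes of the list, which load amino acids onto tRNA, fell (median -4.07), the leucyl enzyme CDC60 by a log2 fold change of -5.38 ± 0.30. Of 16 amino acid permease genes 8 fell and 2 rose, with BAP3 for branched-chain amino acids at -3.53 ± 0.34 and the proline permease PUT4 at 2.14 ± 0.58. Of 22 pathway regulators 4 fell and 6 rose, shares no higher than those of all tested genes. BAS1, an activator of histidine and purine genes, had the largest fall (-4.53 ± 0.35) and DAL80, a repressor of nitrogen catabolic genes, the largest rise (4.64 ± 0.47), where DAL80 overlaps a feature on the opposite strand. LEU3 averaged 38.5 ± 6.25 CPM, against 82.1 ± 15.3 CPM at 25 °C (-1.09 ± 0.19, edgeR adjusted p = 2.06e-06). In Hsf1-depleted cells after 30 min at 37 °C, 18 of 21 synthetase, 11 of 16 permease and 4 of 8 control genes responded lower than in wild type, beside 14.8% of all tested genes. The 4 of 18 other synthesis genes were nearer to that share and the 2 of 22 regulator genes below it, and 0 genes of these lists responded higher, beside 7.89%.

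For the Gcn4 core word the 28 genes with TGACTC in the window were set beside the 24 without it. Some of the 24 hold the word further out, ARO4, LEU9 and CPA1 among them. Within 500 bases before the coding start 37 of the 52 genes hold it. In wild type the median log2 fold change was -0.60 with and -1.08 without the word after 10 min and -0.49 with and -0.63 without the word after 30 min at 37 °C. At 42 °C it was -0.64 with and -0.57 without the word after 10 min and -2.19 with and -2.00 without the word after 30 min. For the response of Hsf1-depleted cells against wild type after 30 min at 37 °C the medians were -1.30 with and -1.39 without the word. Of these 5 pairs of medians that of 10 min at 37 °C lay farthest apart, with the genes that hold the word in the window the less reduced. These medians carry no test. In the authors' deposited table of fold changes, 41 of the 52 genes fell and 4 rose after 30 min at 42 °C in wild type under the same thresholds, and 44 were called the same way in both sources.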

How the data were processed

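Raw counts per gene, deposited by the authors as 1 table per library, were used for all 60 libraries. Reads were converted with bcl2fastq 1.8.4 and counted with featureCounts 2.0.0 on build R64, per the submitters' processing notes, which also name DESeq2 1.28.1. The aligner is not given in the sources used here, nor is the strand setting of the counting step. The authors' deposited table of log2 fold changes and adjusted p-values served for 1 side-by-side count of calls. Groups came from the labels. Per library the counts summed to 3848210 to 10142858, and 0.459% of counts lay in features without a match in the reference annotation.

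All 7126 features entered edgeR 4.0.16 (R 4.3.3). Its filterByExpr step removed 1056 and left 6070 genes, library sizes were scaled by TMM, and 1 mean per group was fitted to all 60 libraries (common biological coefficient of variation 0.276). The quasi-likelihood F test gave 36 comparisons, namely 16 of heat against 25 °C, 4 between states at 25 °C, 12 of heat responses against that of wild type and 4 within wild type. p-values were adjusted by Benjamini-Hochberg over all genes tested in each comparison. A call needs an adjusted p below 0.05 and a log2 fold change of 1 or more in size. No pair of libraries agreed within sampling noise (lowest chi-square per degree of freedom 8.92). On data simulated for wild type after 30 min at 42 °C (5931 genes), the fit recovered 78 of 98 genes changed by 1.5 and 96 of 99 changed by 3 on the log2 scale, with 3 false calls among 5734 unchanged genes. The simulation changed few genes and only in that group, while in the data 29.5% of tested genes fell and 30.2% rose there. Its count of false calls therefore does not carry over to shifts that wide.

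Isozyme ratios used log2 of CPM + 1 and an exact permutation test within states (SciPy 1.17.1). Promoter words were counted in windows placed by the coding start of the RefSeq annotation. Alternatives were DESeq2 1.42.0, other scalings, no filter, a stricter threshold, the compared libraries alone, replicate and set terms, other pseudocounts and windows, and leaving out each library in turn. Leaving out the 5 farthest libraries and the Leu3 word were chosen after seeing the data. The members, gene lists and tests were chosen with earlier results of these data known. Library values are printed for the 4 called genes with the largest rise and fall in wild type after 30 min at 42 °C and after 10 min at 37 °C, for both genes of each isozyme pair, and for the 3 called genes with the largest difference in each comparison between states. Values printed for other members, and BAT2, HIS4 and SER3 in the state comparisons, were chosen after their values were seen.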

Additional observations from a re-analysis of the deposited data

Results flagged for a closer look

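The heat response of some of the 52 genes differed from that of wild type by the edgeR test of the difference itself, and these counts were singled out for that reason. After 10 min at 37 °C the response was higher in 10 genes in double loss cells (beside 11% of all tested genes), in 5 in MSN-deleted cells (3.57%) and in 2 in Hsf1-depleted cells (1.65%). After 30 min at 37 °C it was lower in 17 genes and higher in 1 in double loss cells (16.7% and 9.64%), and lower in 28 and higher in 1 in Hsf1-depleted cells (14.8% and 7.89%), and the higher gene was HIS4 in both. After 10 min at 42 °C it was higher in 2 genes in double loss cells (2.55%) and in 1 gene, ARO7, in MSN-deleted cells (2.92%). After 30 min at 42 °C it was higher in 14 genes and lower in 2 in double loss cells (17.1% and 14.9%), higher in 12 and lower in 1 in MSN-deleted cells (12.7% and 11%), and lower in 2 in Hsf1-depleted cells (2.6%). The 3 states were set against the same wild type libraries.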

How the results depend on the processing

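No single gene reversed its direction under any alternative, and the counts not given here stayed within 1.5 times the reported ones. With library totals alone, genes called numbered 31 for wild type after 10 min at 42 °C and 19 for wild type at 37 °C, 30 min against 10 min. For the response against wild type they then numbered 1 and 9 for Hsf1-depleted cells after 10 and 30 min at 42 °C, 22, 3 and 23 for MSN-deleted cells after 10 min at 37 °C and 10 and 30 min at 42 °C, and 34, 17 and 37 for double loss cells in the same 3 conditions. That scaling split the heat calls of double loss cells into 6 up and 3 down after 10 min at 37 °C, 5 up and 7 down after 10 min at 42 °C and 8 up and 28 down after 30 min at 42 °C, and those of MSN-deleted cells after 30 min at 37 °C into 1 up and 5 down. Without the 5 farthest libraries, the heat calls numbered 23 for MSN-deleted cells after 10 min at 42 °C and 14 for double loss cells after 10 min at 37 °C, and the differences from wild type 1 for Hsf1-depleted cells and 9 for MSN-deleted cells after 10 min at 37 °C and 5 for MSN-deleted cells after 10 min at 42 °C. The other settings moved only differences from wild type and 1 comparison within it. For Hsf1-depleted cells after 10 min at 37 °C the count was 1 at an adjusted p under 0.01, 1 with RLE size factors and 0 with the compared libraries alone. For Hsf1-depleted cells after 30 min at 42 °C it was 1 at an adjusted p under 0.01, 4 by DESeq2, 4 with the replicate block and 6 with the set term. For MSN-deleted cells after 10 min at 37 °C it was 2 at an adjusted p under 0.01, 9 by DESeq2 and 10 with the set term, and after 10 min at 42 °C it was 2 with the set term. For double loss cells it was 17 with the set term after 10 min at 37 °C, and after 10 min at 42 °C it was 0 at an adjusted p under 0.01, 0 without the filter and 1 with the compared libraries alone. Wild type at 37 °C, 30 min against 10 min, had 5 calls with the compared libraries alone. The cause was not tested.

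Leaving out 1 library at a time gave 19 to 29 calls for wild type after 10 min at 37 °C, 13 to 23 for Hsf1-depleted and 4 to 12 for double loss cells after 10 min at 37 °C, 12 to 24 for MSN-deleted cells after 10 min at 42 °C, and 6 to 16 for wild type at 37 °C, 30 min against 10 min. For differences from wild type it gave 0 to 5 and 1 to 5 for Hsf1-depleted cells after 10 min at 37 °C and 30 min at 42 °C, 3 to 13 and 1 to 3 for MSN-deleted cells after 10 min at 37 °C and at 42 °C, and 7 to 17 and 0 to 2 for double loss cells in the same 2 conditions. Among isozyme ratios, it gave -0.13 to 0.04 for ARO8 and ARO9 after 30 min at 37 °C, a ratio that had missed the test and turned positive without double loss (0.037), MSN-deleted (0.012), Hsf1-depleted (0.035) or wild type (0.024) at 25 °C replicate 2. It gave 0.60 to 0.77 for SER3 and SER33 after 30 min at 37 °C and -0.31 to -0.21 for ASN1 and ASN2 after 10 min at 42 °C.

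Correlations by replicate number were uneven, with all pairs over 0.1 in 3 of 36 comparisons (deviations from the group means, r from -0.68 to 0.88). By set number this held in 8 of 34. The 12 differences from wild type repeat the correlations of their heat comparisons, so these comparisons are not all distinct. Such correlations do not show that the samples were unpaired. The block changed no other count by over 1.5 times, but under it the ratios of SER3 to SER33 after 30 min at 37 °C (0.68, adjusted exact permutation p = 0.081) and of ASN1 to ASN2 after 10 min at 37 °C (0.44, adjusted exact permutation p = 0.0509) missed the test. The set term could not be fitted for MSN-deleted or double loss cells against wild type at 25 °C. Counting words in 500 bases before the start gave 15 genes for AGGGG (28.8%, against 34% genome-wide), 10 for GAANNTTC (19.2%, against 19.2%) and 5 for the Leu3 word (9.62%, against 0.266%). Counts under 20 occurred for HIS6, HIS7, ARO4, LYS20 and SER2, for ARO4 among them 16 and 17 counts in wild type after 30 min at 42 °C.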
